A study of Oryza sativa with 6 samples.

Results

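Mitotic cyclins, cyclin-dependent kinases and endocycle regulators were compared between leaves of a tetraploid rice line and the diploid it was made from. The set comprised 9 of the 55986 gene models in the count table, taken by their locus identifiers: CDKA;1 (LOC_Os03g02680), CDKB1 (LOC_Os01g67160), CDKB2 (LOC_Os08g40170), CYCB1;1 (LOC_Os01g59120), CYCB2;1 (LOC_Os04g47580), CYCB2;2 (LOC_Os06g51110), KRP1 (LOC_Os02g52480), EL2 (LOC_Os03g01740) and TE (LOC_Os03g03150, also called TAD1 or CCS52A). Balilla-4x (2n = 48) is an artificial tetraploid produced by doubling the chromosomes of Balilla-2x (2n = 24), a japonica variety from Italy with low seed set. Leaves came from 4-week-old plants of both lines, grown in a Shanghai paddy field in season and labelled as given the treatment normal. There were 3 libraries of each line, and the labels name neither the plants behind each library, the number of tetraploid lines nor the part of the leaf. Each p-value is therefore set against the variation among libraries that may be technical.

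A plant cell enters mitosis when cyclin-dependent kinases are bound by mitotic cyclins, and leaves it when the anaphase-promoting complex marks those cyclins for destruction. CDKA;1 acts through the whole cycle, whereas the CDKB kinases are particular to plants and are made mainly in cells about to divide, together with the B-type cyclins. Inhibitors of the KRP and SIAMESE-related families hold the kinases back, and CCS52A-type activators keep the anaphase-promoting complex active in cells that stop dividing or enter the endocycle, in which DNA is copied without division. Grass leaves divide mainly at their base, and most cells of an expanded blade no longer divide.

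Library totals were 16738447 to 17078688 counts in Balilla-4x and 17147985 to 18106962 in Balilla-2x, and 3 counts, the limit that a count of 0 allows, equalled 0.166 to 0.179 CPM (counts scaled to a common library size). Intervals from counts below cover counting error only. The tissue is given as labelled, since the files pair no identifiers with leaf marker genes. RNA was measured relative to all RNA in a library, so fewer cells of a type and less RNA per cell cannot be told apart.

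The leaf held transcripts of the inhibitors, of TE, CDKA;1 and CDKB1, and almost none of the 3 B-type cyclins in the set. In FPKM, a unit that corrects for gene length as well as library size, the order of the mean level over the 6 libraries was KRP1 at 42.4 ± 4.46, EL2 at 14.4 ± 1.88, TE at 9.64 ± 0.856, CDKA;1 at 7.04 ± 0.857 and CDKB1 at 5.69 ± 1.39 (SD, n = 6 libraries of both lines). KRP1, EL2, TE and CDKA;1 each lay above the next in all 6 libraries, with no overlap between neighbours. CDKA;1 and CDKB1 overlapped, CDKA;1 being higher in 5 of 6 libraries. CDKB2 followed at 0.356 ± 0.245 FPKM and did not overlap with CDKB1. The cyclins CYCB2;1, CYCB1;1 and CYCB2;2 came last, at 0.0325, 0.0245 and 0.0147 FPKM on average, and overlapped with each other. CDKB2 overlapped with CYCB2;1 and was higher in 5 of 6 libraries. In Balilla-2x replicate 3 it lay lower, at 0.044 FPKM against 0.0642 FPKM for CYCB2;1. Of the 30986 genes with a count, 91.2% had a lower mean FPKM than KRP1, while 57.8% lay below CDKB1, 29.98% below CDKB2 and 6.91% to 11.9% below the cyclins.

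**Figure D1:**
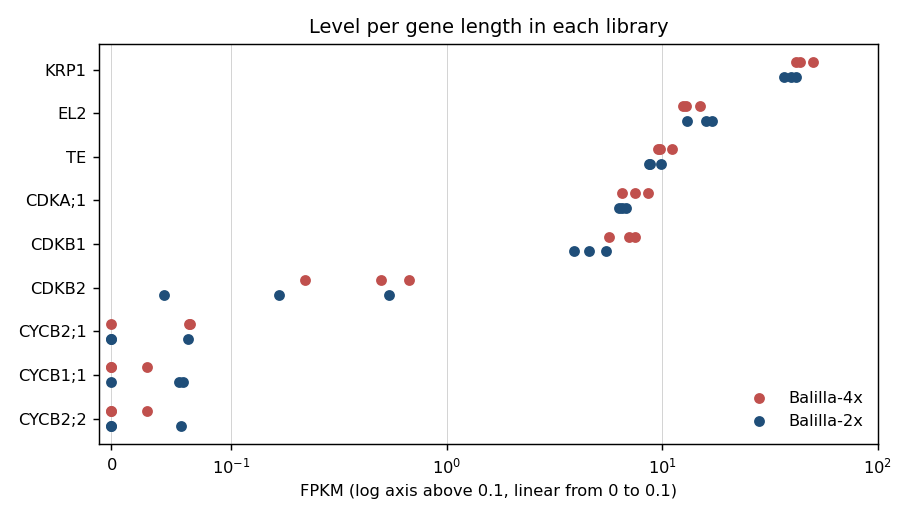
FPKM of each gene in each library (x axis, logarithmic above 0.1 and linear from 0 to 0.1), with genes in order of their mean level and 1 point per library of Balilla-4x or Balilla-2x. KRP1 lies between 36.9 and 50.05 FPKM and the 3 cyclins lie below 0.1 FPKM in every library.

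The difference between the lines was tested for 6 of the 9 genes, since the 3 cyclins did not pass the filter on low counts. None of the 6 was called different between Balilla-4x and Balilla-2x (edgeR quasi-likelihood test, adjusted p under 0.05), while 26.1% of all 20976 tested genes were. Leaving out Balilla-4x replicate 2 brought that share to 14.2%, leaving out Balilla-4x replicate 3 to 15.4%, and leaving out Balilla-2x replicate 3 to 15.2%. At an unadjusted p under 0.05, 1 of the 6 (CDKB1) and 39.2% of all tested genes differed. CDKB1 missed that limit in 6 of 14 alternative analyses, namely DESeq2, the replicate block and 4 of the 6 that leave out a library. DESeq2, which called 24.2% of its tested genes, and limma on log2 of FPKM + 0.1 or + 1, which called 25.2% and 25.3%, called 0 of the same 6, the cyclins having no adjusted p in either. The fitted log2 fold change, Balilla-4x over Balilla-2x, was above 0 for 5 of the 6 and below 0 for 1, with a median of 0.14 over the 6 and 0.01 over all tested genes. In CPM the lines overlapped for all 6, whereas they did not overlap for 44.3% of tested genes. With tested genes divided by mean CPM into 5 classes of equal size, 20.0% were called in the class of CDKB2, 25.1% in that of CDKB1, 25.6% in that of CDKA;1, TE and EL2 and 28.0% in that of KRP1. Whether the 6 genes differ from the rest of the table in these shares was not tested.

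**Figure D2:**
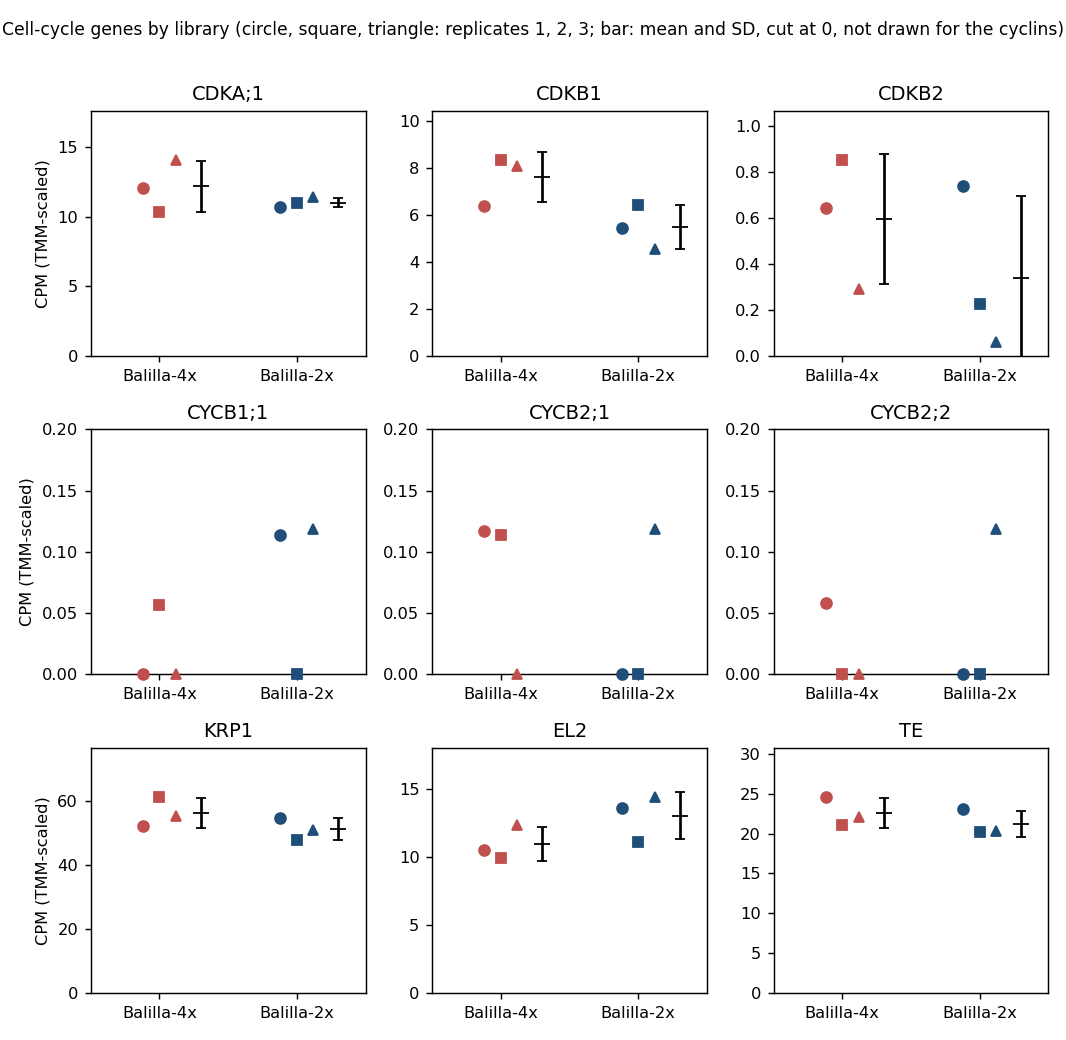
CPM scaled by TMM (y axis, from 0, with its own range in each panel) in the 3 Balilla-4x and the 3 Balilla-2x libraries for the 9 genes. Points are libraries and bars the mean and SD, cut at 0 and not drawn for the 3 cyclins. The points of the lines overlap in every panel.

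CDKB1, the B-type kinase with the most counts, showed the difference with the lowest p-value of the set. Its counts were 109, 147 and 139 in the Balilla-4x libraries and 96, 114 and 77 in the Balilla-2x libraries. Scaled for depth these were 6.39, 8.36 and 8.11 CPM in Balilla-4x, against 5.45, 6.45 and 4.57 CPM in Balilla-2x. Balilla-4x replicate 1, the lowest of its line, lay just under Balilla-2x replicate 2, the highest of the diploid, and all other tetraploid libraries lay above all diploid ones. The means were 7.62 ± 1.07 CPM in Balilla-4x, against 5.49 ± 0.944 CPM in Balilla-2x (SD, n = 3 each). The fitted difference was 0.47 ± 0.21 (log2 fold change, SE), a 1.39-fold higher level in Balilla-4x with a 95% interval of 1.00 to 1.92 (edgeR quasi-likelihood test, adjusted p = 0.127). In FPKM, which is scaled by library totals, the lines did not overlap, with 5.64 to 7.501 in Balilla-4x and 3.89 to 5.48 in Balilla-2x. On that scale 43.9% of tested genes did not overlap. The adjusted p stayed above the threshold in each of 14 alternative analyses, between 0.0753 (limma on log2 of FPKM + 0.1) and 0.322 (edgeR without Balilla-2x replicate 3).

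CDKB2, the other mitotic kinase and one whose transcript marks cells in G2 and mitosis, was near the limit of detection. It had 11, 15 and 5 counts in Balilla-4x and 13, 4 and 1 in Balilla-2x. The diploid libraries alone covered a wide span: 13 counts has an exact Poisson 95% interval of 6.92 to 22.2 and 1 count an interval of 0.0253 to 5.57, which do not overlap. Mean levels were 0.597 ± 0.284 CPM in Balilla-4x, against 0.341 ± 0.354 CPM in Balilla-2x (SD, n = 3 each). The fitted log2 fold change was 0.79 ± 0.76 (SE), and its 95% interval ran from 0.518-fold to 5.74-fold (edgeR adjusted p = 0.48). An interval of that width leaves the size and the direction of the difference undetermined. Balilla-2x replicate 1 set much of the value: without it the log2 fold change was 1.99 (edgeR adjusted p = 0.133), and without Balilla-2x replicate 3 it was 0.30 (edgeR adjusted p = 0.807).

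The 3 B-type cyclins of the set, a family that binds the kinases at the entry into mitosis, had between 0 and 2 counts in every library. CYCB1;1 had 0, 1 and 0 counts in Balilla-4x and 2, 0 and 2 in Balilla-2x. CYCB2;1 had 2, 2 and 0 counts in Balilla-4x and 0, 0 and 2 in Balilla-2x. CYCB2;2 had 1, 0 and 0 counts in Balilla-4x and 0, 0 and 2 in Balilla-2x. Every value was under the 3 counts that a count of 0 allows, and a difference between the lines was not detectable at this depth. Of the genes with a count, 11.7% likewise had at most 2 in every library. With the counts of a line pooled, the upper 95% Poisson limits were 0.11, 0.202 and 0.11 CPM for CYCB1;1, CYCB2;1 and CYCB2;2 in Balilla-4x, and 0.192, 0.136 and 0.136 CPM in Balilla-2x. Per gene length these limits were at most 0.111 FPKM in Balilla-4x and 0.0986 FPKM in Balilla-2x, against mean CDKB1 levels of 6.73 and 4.65 FPKM in those lines.

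Among the 5 mitotic genes of the set, CDKB1 gave most of the summed level. The summed level of both CDKB genes and the 3 cyclins was 6.23, 8.26 and 7.27 FPKM in Balilla-4x, against 5.19, 5.64 and 4.12 FPKM in Balilla-2x. CDKB1 alone gave 90.5% to 96.96% of the sum in Balilla-4x and 88.5% to 97.04% in Balilla-2x. The sums of the lines did not overlap, as for CDKB1 itself on this scale. Singly, 43.9% of all tested genes did not overlap in FPKM either. The 3 cyclins together had 3, 3 and 0 counts in Balilla-4x and 2, 0 and 6 in Balilla-2x, too few to rank the libraries.

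CDKA;1, the kinase that drives both DNA synthesis and mitosis, overlapped between the lines. It had 206, 182 and 241 counts in Balilla-4x and 188, 194 and 192 in Balilla-2x. These were 12.1, 10.3 and 14.1 CPM in Balilla-4x, against 10.7, 10.98 and 11.4 CPM in Balilla-2x. The tetraploid libraries lay on both sides of the diploid ones. The fitted log2 fold change was 0.14 ± 0.15 (SE), or 1.10-fold with a 95% interval of 0.867 to 1.41 (edgeR adjusted p = 0.525).

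KRP1, a KIP-related inhibitor whose overexpression in rice reduces grain filling, was the most abundant gene of the set. It had 887, 1076 and 947 counts in Balilla-4x and 961, 842 and 860 in Balilla-2x. Scaled for depth these were 52.0, 61.2 and 55.3 CPM in Balilla-4x, against 54.6, 47.7 and 51.0 CPM in Balilla-2x. The lines overlapped, with Balilla-2x replicate 1 above the lowest tetraploid library. The fitted log2 fold change was 0.14 ± 0.10 (SE), or 1.10-fold with a 95% interval of 0.94 to 1.29 (edgeR adjusted p = 0.343).

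EL2, a rice inhibitor first known as an early response gene to fungal cell wall fragments, was the only tested gene of the set with a lower fitted level in the tetraploid. It had 179, 175 and 212 counts in Balilla-4x and 239, 196 and 243 in Balilla-2x. These were 10.5, 9.95 and 12.4 CPM in Balilla-4x, against 13.6, 11.1 and 14.4 CPM in Balilla-2x. Balilla-2x replicate 2 lay below the highest tetraploid library, so the lines overlapped. The fitted log2 fold change was -0.25 ± 0.16 (SE), or 0.84-fold with a 95% interval of 0.654 to 1.08 (edgeR adjusted p = 0.277).

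TE, a rice activator of the anaphase-promoting complex that restrains tillering, had 420, 370 and 379 counts in Balilla-4x and 407, 357 and 342 in Balilla-2x. Scaled for depth these were 24.6, 21.0 and 22.1 CPM in Balilla-4x, against 23.1, 20.2 and 20.3 CPM in Balilla-2x. The lines overlapped through Balilla-2x replicate 1 only, which lay above Balilla-4x replicates 2 and 3. Balilla-2x replicates 2 and 3 lay below all tetraploid libraries. The fitted log2 fold change was 0.09 ± 0.12 (SE), or 1.07-fold with a 95% interval of 0.886 to 1.28 (edgeR adjusted p = 0.595).

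**Figure D3:**
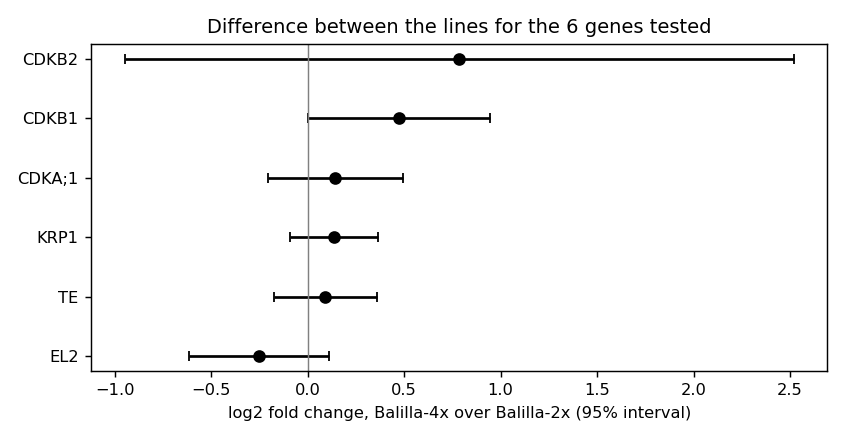
Fitted log2 fold change, Balilla-4x over Balilla-2x (x axis), of the 6 tested genes, with the 95% interval from edgeR as a bar. The interval of CDKB1 begins at 1.00-fold, and the intervals of the other 5 genes span 0.

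Levels within a library were also set against each other, which does not depend on how libraries are scaled. The FPKM ratio of KRP1 to CDKA;1, an inhibitor to its kinase, was 6.13 ± 1.37 in Balilla-4x, against 6.03 ± 0.534 in Balilla-2x (SD, n = 3 each). TE to CDKA;1 gave 1.36 ± 0.194 in Balilla-4x, against 1.40 ± 0.15 in Balilla-2x, and CDKB1 to CDKA;1 gave 0.909 ± 0.212 in Balilla-4x, against 0.712 ± 0.134 in Balilla-2x (SD, n = 3 each). The lines overlapped in all 3 of these ratios. CDKB1 to CDKB2, not drawn, was 18.2 ± 11.9 in Balilla-4x, against 43.2 ± 41.0 in Balilla-2x (SD, n = 3 each). It also overlapped and rests on few CDKB2 counts. EL2 to CDKA;1 was 1.72, 1.91 and 1.75 in Balilla-4x, against 2.52, 2.00 and 2.51 in Balilla-2x, without overlap. KRP1 to EL2, the ratio of the inhibitors, was 3.24, 4.03 and 2.93 in Balilla-4x, against 2.63, 2.81 and 2.32 in Balilla-2x, again without overlap. Both ratios that separated the lines hold EL2. Among all other tested genes, the ratio to CDKA;1 did not overlap between the lines for 37.5% and the ratio to EL2 for 36.3%, so separation of this kind was common. The ratios were chosen after the values of the genes had been seen, and no test was made of them.

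**Figure D4:**
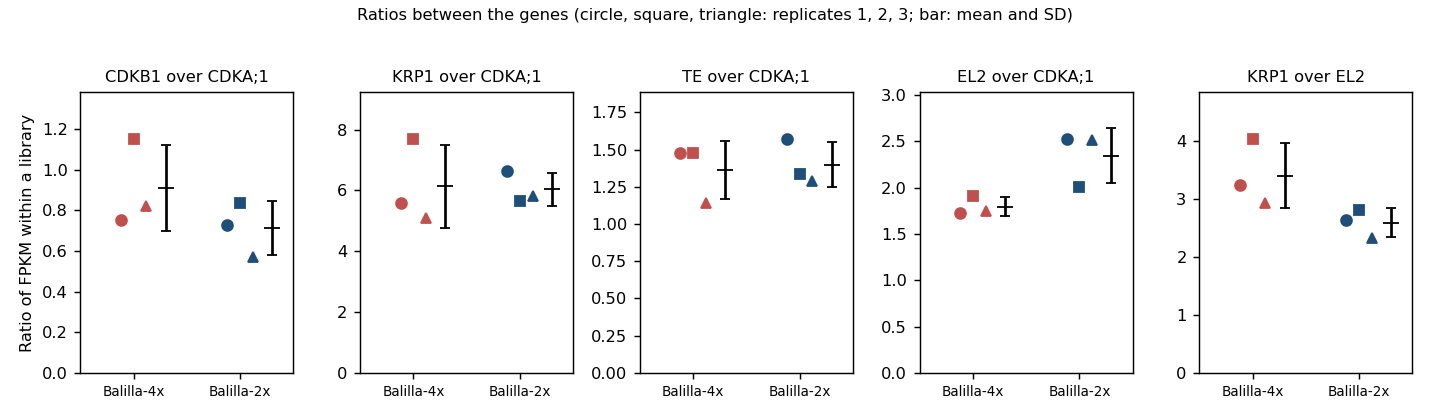
Ratio of FPKM values within a library (y axis, from 0) for 5 pairs of genes, with 1 point per Balilla-4x or Balilla-2x library and bars for the mean and SD. EL2 over CDKA;1 lies at 1.72 to 1.91 in Balilla-4x and 2.00 to 2.52 in Balilla-2x, and the first 3 ratios overlap between the lines.

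The 9 genes lie on chromosomes 1, 2, 3, 4, 6 and 8, by their identifiers. EL2, CDKA;1 and TE share the start of chromosome 3, at locus numbers 1740, 2680 and 3150, which give their order and no length in bases. Among the 5 nearest tested genes on each side of each member, 90 in all, 12 were called higher and 4 lower in Balilla-4x (edgeR adjusted p under 0.05), or 17.8%, against 26.1% of all tested genes. Over the whole table, 2598 were called higher and 2883 lower, and the direction of the neighbours was not tested. CDKA;1 had the most called neighbours, with 3 higher and 1 lower in Balilla-4x. CDKB2 had 2 higher and 1 lower, and CYCB2;2 and KRP1 each had 1 higher and 1 lower. CDKB1, the cyclins CYCB1;1 and CYCB2;1, EL2 and TE each had 1 called neighbour, higher in Balilla-4x.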

How the data were processed

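The authors deposited raw read counts per gene for 6 leaf libraries and FPKM values for each, per the file headers. HISAT2 2.1.0 did the alignment, per the submitters' processing notes. Not given in the sources used here are the counter, build, annotation and strand setting, so reads shared with paralogs or antisense genes cannot be separated. In 100% of nonzero values, count, FPKM and library total gave a whole gene length within 0.01 bases.

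Members and roles were chosen with earlier results of these data known. All 9 members are described. Names were set against RefSeq symbols (assembly ASM3414082v1), with CDKB1 searched as CDKB1;1 and CDKB2 as CDKB2;1. Of these names, 7 matched 1 gene on the same chromosome, CYCB1;1 matched 2 genes and TE none. Only symbol and chromosome were compared, not the locus. No table identifier occurs among the 39387 RefSeq genes, so no further cell-cycle or leaf marker genes are listed, and no sequences are printed.

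Counts were fitted in R 4.3.3 with edgeR 4.0.16 (filterByExpr, TMM, quasi-likelihood F test, two-sided, Benjamini-Hochberg over 20976 genes holding 99.9% of counts, threshold 0.05). The standard error is the log2 fold change over the square root of F. The fit was also run on simulated data. Recovery was required there only for planted changes larger than any fitted for the members. Smaller changes were planted too, but their recovery is not reported here, so no power is given for changes of the members' size. Alternatives used library totals, RLE, other filters, DESeq2 1.42.0, limma 3.58.1 on log2 of FPKM + 0.1 or + 1, a replicate block and each library left out. A planned likeness of profiles across libraries is not reported, since 3 of the 5 mitotic genes had at most 2 counts in any library. Ratios, expression classes and neighbouring genes are described without a test, the first 2 chosen after values were seen.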

Additional observations from a re-analysis of the deposited data

How the results depend on the processing

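The 6 tested genes kept the direction of their log2 fold change and stayed above the adjusted p threshold in every alternative run, 14 for each gene and 13 for CDKB2, which the filter of 1 CPM in 3 libraries removed. Called were 0 of the genes with an adjusted p, which were all 9 without the filter, 5 with the filter of 1 CPM and 6 in every other alternative. The lowest adjusted p was 0.0753 for CDKB1 (limma), 0.133 for CDKB2, 0.167 for EL2, 0.185 for KRP1, 0.293 for CDKA;1 and 0.369 for TE (edgeR or limma). Fitted without the filter, the 3 cyclins had adjusted p-values of 0.559, 0.75 and 0.808 (edgeR). Leaving out a library gave log2 fold changes of 0.03 to 0.26 for CDKA;1, 0.35 to 0.60 for CDKB1, 0.30 to 1.99 for CDKB2, 0.08 to 0.19 for KRP1, 0.02 to 0.16 for TE and -0.36 to -0.17 for EL2. The number of genes called over the whole table, 5481, was 3029 at the lowest (without Balilla-4x replicate 2) and 6600 at the highest (leaving out Balilla-4x replicate 1), and was 3269 without Balilla-2x replicate 3 and 3306 without Balilla-4x replicate 3. The cause was not tested. Replicate numbers gave no sign of pairing, as same-numbered libraries' deviations from their line mean had correlations over genes of 0.0019, -0.02 and -0.04. With the replicate block, 4617 genes and 0 of the 6 were called, and CDKB1 had a log2 fold change of 0.47 (edgeR adjusted p = 0.158). The mean summed level of the mitotic genes was 7.26 FPKM in Balilla-4x and 4.98 FPKM in Balilla-2x. With TMM-scaled CPM per kilobase it was 7.12 in Balilla-4x and 5.10 in Balilla-2x. Leaving out a library of the line gave means of 6.75 to 7.77 FPKM in Balilla-4x and 4.65 to 5.42 FPKM in Balilla-2x. Such a shift of a mean of 3 values is always under 1 SD, so it is no check. Depth limits the cyclins, and CDKB2 is limited by few counts and by a spread between libraries beyond counting error.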
